A study of Homo sapiens with 6 samples.

Results

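The cadherin and claudin genes were followed in a human leukaemia line in which the chromatin remodeller EP400 either could or could not hold its partner TRRAP. Members were all annotated genes whose symbol is CDH or CLDN followed only by digits, which gave 47 of the 60609 genes counted: 23 cadherins and 24 claudins. Poly(A) RNA of K562 cells was sequenced in 6 libraries. K562 is an established line from a chronic myeloid leukaemia with erythroid and megakaryocytic features. In all 6 libraries endogenous EP400, which is the motor ATPase within TIP60, carried the degradation tag dTAG, and every culture received dTAGV-1, the compound that triggers loss of the tagged protein, at 500 nM for 24 h. The WT group (3 libraries) expressed exogenous wild-type EP400 from the AAVS1 locus, and the Delta-TRRAP group (3 libraries) expressed EP400 lacking the region that binds the TRRAP module. Untagged parental cells and cells without the compound were not analysed here. The complemented lines were clonal, so the clone and the EP400 genotype cannot be told apart, and p-values measure only the spread between these libraries.

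Cadherins are calcium-dependent adhesion proteins that bind cadherins on the neighbouring cell. Classical cadherins (type I, such as CDH1 of epithelia, and type II, found in neural, vascular and other tissues) are tied to actin by catenins at adherens junctions. Claudins are membrane proteins with 4 transmembrane passes that form the strands of tight junctions, where some seal the gap between cells and others form pores for ions; their tails bind scaffold proteins such as TJP1. Both families are known chiefly from epithelia and endothelia, and blood cells grown in suspension such as K562 do not form such junctions.

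Total counts ran from 39966818 to 42616061 in the WT and from 35076835 to 38491513 in the Delta-TRRAP libraries. EP400 itself had 4833, 5105 and 5285 counts in WT and 5642, 7009 and 4119 in Delta-TRRAP (log2 fold change of Delta-TRRAP over WT 0.14 ± 0.11 SE, adjusted p = 0.272 by edgeR), where reads of the tagged locus and the transgene are added together, so this gene does not check the labels. All 8 erythroid-megakaryocytic markers examined, among them GATA1 and KLF1, had counts in every library, but the list was not level between the groups: ITGA2B (-2.89 ± 0.10) and TFRC (-1.09 ± 0.055) were called lower and HBE1 (2.08 ± 0.29) higher. The summed counts of the list were between 215123 and 228852 in WT libraries and between 112589 and 131216 in Delta-TRRAP libraries. Fold changes in what follows are Delta-TRRAP over WT, with the standard error of edgeR's quasi-likelihood fit, and a gene was called at an adjusted p of at most 0.01 and a fold change of at least 2. Normalized counts are counts scaled by TMM factors.

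Most cadherin and claudin genes were barely read in either group. Of the 47 members, 13 had no count in any library, 23 had counts but stayed below the mean normalized count of 5 needed for a test, and 11 were tested (4 cadherins and 7 claudins). The 13 at 0 were CDH2, CDH4, CDH9, CDH19, CDH20, CLDN1, CLDN2, CLDN3, CLDN8, CLDN17, CLDN24, CLDN25 and CLDN34. A count of 0 allows a level of up to 0.0244 CPM (counts per 1e6) in the pooled WT libraries and up to 0.027 in Delta-TRRAP, which covers counting error only. The family's summed count was similar in the groups, at 2504, 2674 and 2476 in WT and 2567, 2702 and 2611 in Delta-TRRAP, and most of it came from CLDN12.

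**Figure D1:**
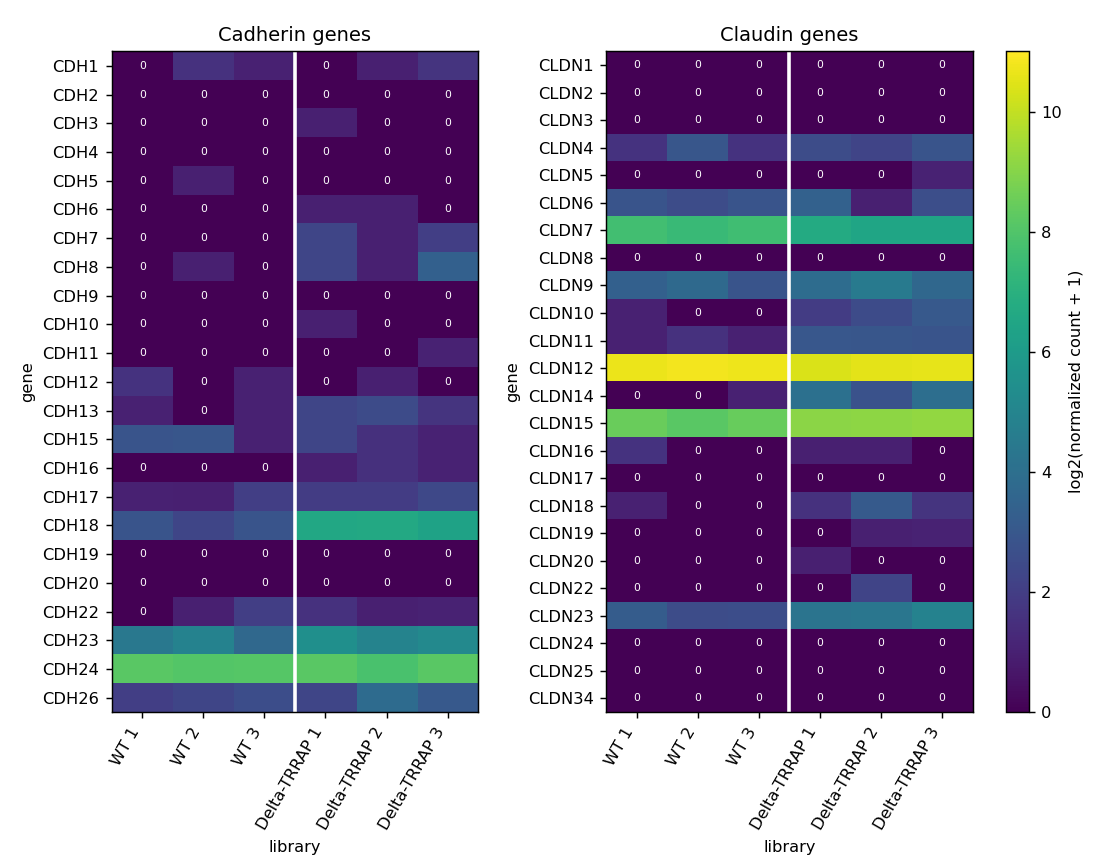
Each row is a cadherin (left) or claudin (right) gene and each column a library, coloured by log2(normalized count + 1), with 0 printed where no read was counted. CLDN12, CLDN15, CDH24 and CLDN7 were read best on average over the 6 libraries, CDH18 and CLDN14 stand out in the 3 Delta-TRRAP libraries, and 13 rows are at 0 throughout.

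The comparison of WT with Delta-TRRAP asked how the RNA of these genes differed when EP400 lacked its TRRAP-binding region. CDH18, CLDN14 and CLDN23 rose, CLDN7 fell to about the threshold of 2-fold, and CLDN15 rose by a smaller step. The other 6 tested members did not pass the test. The 3 genes called higher, of 11 tested, compare with 16.5% of all 19114 tested genes called higher, and the 1 called lower with 6.08%. All 3 were among the 7 tested members with a mean normalized count under 100, a class in which 30.8% of all tested genes were called higher and 6.3% lower. An adjusted p of at most 0.01 at any fold change was reached by 5 of the 11 members, against 58.3% of all tested genes, and the 3 libraries of one group lay wholly above those of the other for 7 of the 11, against 71.1%. The median log2 fold change of the 11 tested members was 0.80 (range -1.001 to 4.74), beside 0.03 for all tested genes. These medians are not matched for count level, since 7652 of the 19114 tested genes had a mean under 100, against 7 of the 11. CLDN14 and CDH26 reached the mean of 5 needed for a test only through their Delta-TRRAP libraries.

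The start regions of 4 members that changed are shown first, because they lie just before annotated starts of the RNAs measured. Each window holds the 250 bases before a RefSeq transcript start (GRCh38.p14), read 5′ to 3′ on the gene's strand, minus in all 4 cases. For CDH18 and CLDN14 the outermost start is shown, for CLDN7 an inner start picked because it held the matches described, and for CLDN15 its single listed window.
CDH18, chr5:20575714-20575963: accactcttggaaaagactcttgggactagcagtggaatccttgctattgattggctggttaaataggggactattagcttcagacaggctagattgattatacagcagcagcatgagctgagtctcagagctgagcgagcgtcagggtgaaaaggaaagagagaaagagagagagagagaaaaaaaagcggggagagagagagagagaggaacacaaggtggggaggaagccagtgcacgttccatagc
CLDN14, chr21:36576570-36576819: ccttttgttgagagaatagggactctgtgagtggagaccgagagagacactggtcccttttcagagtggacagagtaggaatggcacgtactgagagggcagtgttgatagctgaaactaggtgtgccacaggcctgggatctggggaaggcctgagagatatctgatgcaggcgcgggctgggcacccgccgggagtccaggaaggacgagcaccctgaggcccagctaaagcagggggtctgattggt
CLDN7, chr17:7262479-7262728: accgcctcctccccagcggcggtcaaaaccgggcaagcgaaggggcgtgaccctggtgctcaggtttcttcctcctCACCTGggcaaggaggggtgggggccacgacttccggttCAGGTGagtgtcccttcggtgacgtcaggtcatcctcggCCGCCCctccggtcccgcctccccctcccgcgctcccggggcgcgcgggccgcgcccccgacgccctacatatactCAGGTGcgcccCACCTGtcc
CLDN15, chr7:101237803-101238052: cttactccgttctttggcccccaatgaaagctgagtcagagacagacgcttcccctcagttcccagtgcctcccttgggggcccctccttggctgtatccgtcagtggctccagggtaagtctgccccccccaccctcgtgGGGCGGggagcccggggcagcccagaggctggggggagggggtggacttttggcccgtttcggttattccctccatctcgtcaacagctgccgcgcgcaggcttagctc
Capitals mark matches on either strand to an E-box (CAGGTG or its reverse complement), a core bound by SNAI1, ZEB1 and other repressors, or to a GC box (GGGCGG or its reverse complement), a core bound by SP1. None of these matches overlaps another. The CLDN7 window held 4 E-boxes and 1 GC box. An E-box stood in 17.5% of all 34943 RefSeq windows of this length, 4 or more in 0.12% (42 windows), and a GC box in 42.5%. Over the 31 members with windows, 6 of 50 windows held an E-box, a smaller share than over all windows, and since the CLDN7 window was picked for its matches, its 4 describe that window alone. The CLDN15 window held 1 GC box, and the printed CDH18 and CLDN14 windows held neither core, nor TATAAA (10.8% of all windows) or AGATAA, the core bound by GATA factors (9.19%). CpG sites numbered 4 in the CDH18 window, 7 in that of CLDN14, 12 in that of CLDN15 and 25 in that of CLDN7, with a median of 11 over all windows. The outer CLDN7 window and the inner windows of CDH18 held no match to any of the 4 motifs, and the inner windows of CLDN14 held 1 E-box and 1 AGATAA. The matches describe letters and no binding, and gene counts do not tell which start was used.

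CDH18, a type II cadherin known chiefly from the brain (ENSG00000145526.12, chr5:19471296-20575873), gave 6, 4 and 6 counts in the WT libraries and 99, 104 and 75 in the Delta-TRRAP libraries. The groups were far apart, and each Delta-TRRAP library held more counts than the 3 WT libraries together. The rise was 4.10 ± 0.25 on the log2 scale (adjusted p = 1.46e-09). Per length, CDH18 went from 0.0214 to 0.364 RPKM (reads per kilobase of exon and per 1e6 reads), a level below which lay 4.97% of tested genes in WT and 24.5% in Delta-TRRAP, so it stayed a weakly read gene.

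Most tested genes around the 5′ end of CDH18 rose as well. Within 1 Mb of that end 5 other genes were tested, and 4 of them were called higher. The shares called higher were 16.5% of all tested genes and 30.8% of those with a mean normalized count under 100. LINC02241, a long noncoding RNA whose 5′ end lies 35.9 kb upstream on the opposite strand, had 9, 10 and 8 counts in WT and 433, 419 and 364 in Delta-TRRAP (log2 fold change 5.48 ± 0.15, adjusted p = 1.24e-13). CDH18-AS1, which lies within the span of CDH18 on the opposite strand, had 1, 2 and 1 counts against 155, 183 and 137 (6.77 ± 0.29, adjusted p = 1.75e-11). AC140168.1, a noncoding RNA 457 kb upstream, had 5, 0 and 2 counts against 299, 286 and 266 (6.86 ± 0.26, adjusted p = 6.09e-12). Each of these 3 RNAs gave more reads than CDH18 itself in every Delta-TRRAP library. A processed pseudogene inside CDH18 on its strand, AC094103.1, rose from 9 counts in all to 145 (3.96 ± 0.37, adjusted p = 1.52e-07), and reads of unspliced CDH18 transcripts there could be counted for it. CDH18-AS1, AC140168.1 and AC094103.1 passed the filter on low counts only through their Delta-TRRAP libraries, so among the tested genes they had to differ. The exception was GUSBP1, 883.7 kb upstream, at 1456 counts in the WT libraries and 1541 in Delta-TRRAP (0.09 ± 0.07, adjusted p = 0.256). The 4 other cadherin genes of chromosome 5, CDH6, CDH9, CDH10 and CDH12, had 0 to 2 counts in any library.

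CLDN14, a claudin of the inner ear and kidney that is known to seal against cations (ENSG00000159261.12, chr21:36460621-36576569), had 0, 0 and 1 counts in WT and 16, 6 and 14 in Delta-TRRAP. No WT library reached the lowest Delta-TRRAP library, and that lowest library, replicate 2, lay well below the other pair. With library sizes scaled by TMM factors, the pooled counts of 1 and 36 gave a ratio of 35.6. Its exact 95% interval, from 6.0 to 1447, covers counting error only. The fitted log2 fold change was 4.74 ± 0.82 (adjusted p = 1.05e-04), and since WT held 1 read it depends on the prior count. Without WT replicate 3, the library with that read, the fit gave 6.61. CLDN14 passed the filter on low counts only through its Delta-TRRAP libraries, so among the tested genes it had to differ.

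A pair of noncoding genes that overlap CLDN14 on the opposite strand also rose. AP000695.2 had 0, 2 and 1 counts in WT and 80, 65 and 62 in Delta-TRRAP, a count ratio of 68.3 (95% interval 23.1 to 334). AP000695.1 had 1, 0 and 0 counts against 23, 31 and 20, a ratio of 73.3 (12.7 to 2930). Both were called (adjusted p = 3.20e-09 and 6.89e-07), and the stranded counting kept their reads apart from those of CLDN14. Like CLDN14, both passed the filter on low counts only through their Delta-TRRAP libraries, so among the tested genes they had to differ. Of the 25 other genes tested within 1 Mb of the 5′ end of CLDN14, 7 were called higher and 1 lower, the latter RUNX1 at -2.01 ± 0.06. The 7 include the noncoding pair. They also include AP000692.2, CBR3-AS1 and AP000688.1, which passed the filter only through their Delta-TRRAP libraries as well, so these too had to differ. Over all tested genes 16.5% were called higher and 6.08% lower. Among those with a mean normalized count under 100 the shares were 30.8% and 6.3%. CHAF1B, the next tested gene beyond the noncoding pair, was read 10802 times in WT and 10594 times in the mutant libraries (-0.02 ± 0.05, adjusted p = 0.776). Well-read genes (normalized counts averaging 100 or more) within 5 Mb had a median log2 fold change of -0.10 (44 genes) around CLDN14 and of 0.09 (5 genes) around CDH18. With low-count genes included, the medians of tested genes were 0.24 (86 genes) around CLDN14 and 1.85 (15 genes) around CDH18.

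**Figure D2:**
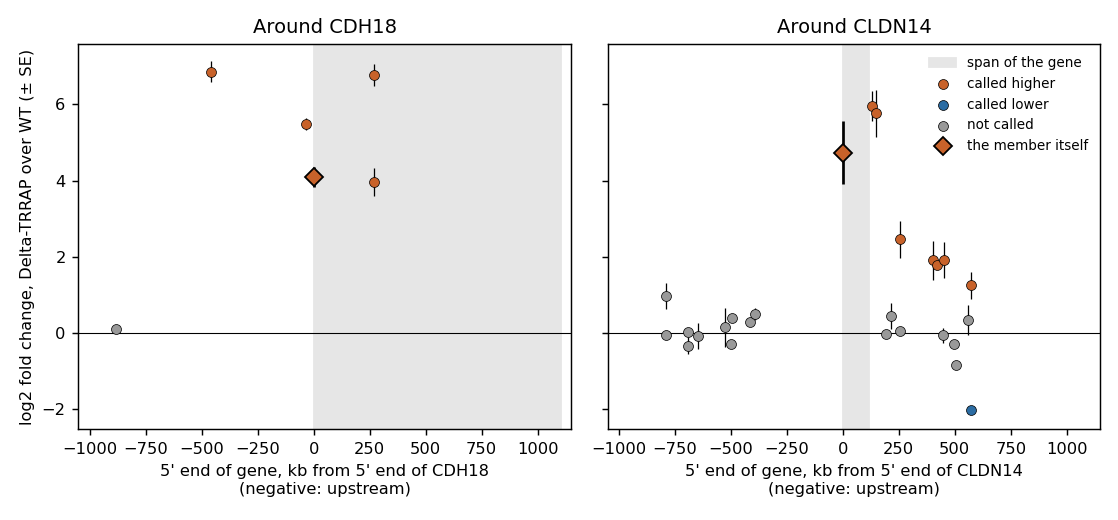
Log2 fold change (Delta-TRRAP over WT, bars ± SE) of each tested gene against the distance of its 5′ end from that of CDH18 (left) or CLDN14 (right) in kb, with the span of the member shaded and the member as a diamond. At CDH18 4 of 5 neighbours lie above 3.9, and at CLDN14 the 2 highest points are the opposite-strand RNAs that overlap its 3′ end.

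CLDN23 (ENSG00000253958.2, chr8:8701937-8704096), a claudin of gut epithelia, had 8, 5 and 5 counts in WT and 18, 20 and 27 in Delta-TRRAP. The lowest Delta-TRRAP library stood above the highest WT library by 10 counts. The rise was 1.84 ± 0.36 (adjusted p = 2.91e-04), and it lay between 1.56 and 2.11 in the 15 alternatives that tested the gene. Around CLDN23 the 22 well-read genes within 5 Mb had a median of 0.28. All 42 tested genes there, low counts included, had a median of 0.56, with 17 called higher and 3 lower. Within 1 Mb of its 5′ end, the window used for CDH18, CLDN14 and CLDN7, 10 other genes were tested. Of these 1 was called higher and 1 lower. The former, AC105233.5, passed the filter on low counts only through its Delta-TRRAP libraries. Over all tested genes the shares were 16.5% and 6.08%. Among those with a mean normalized count under 100 they were 30.8% and 6.3%.

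CLDN7 was the member that fell. It is a claudin of many epithelia that is known to bind the adhesion protein EPCAM (ENSG00000181885.18, chr17:7259903-7263983). It had 199, 180 and 189 counts in WT and 106, 92 and 84 in Delta-TRRAP, or 190 ± 15.4 and 93.4 ± 8.86 normalized counts (SD, n = 3 each). Every Delta-TRRAP library lay well below every WT library. The log2 fold change was -1.001 ± 0.12 (adjusted p = 1.88e-06, 95% interval -1.25 to -0.75), which only just met the 2-fold threshold: it was -0.87 with scaling to library size alone, -0.95 without WT replicate 1, -0.99 without WT replicate 3, -0.96 without Delta-TRRAP replicate 2 and -0.97 without Delta-TRRAP replicate 3, and under each of these the gene was no longer called although its adjusted p was at most 3.42e-05. The fall itself thus exceeded the spread between libraries in each of these fits, and only its standing against 2-fold moved. ENSG00000262302, a gene on the same strand, covers 10.8% of the exon bases of CLDN7, and in the counting mode used, reads there count for neither gene. Of 67 other tested genes with a 5′ end within 1 Mb of that of CLDN7, 5 were called higher and 2 lower. The shares over all tested genes were 16.5% and 6.08%.

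EPCAM, the binding partner of CLDN7, stood at 7314, 7284 and 6472 counts in WT and 2392, 2419 and 2356 in Delta-TRRAP (-1.54 ± 0.06, adjusted p = 3.39e-12). The keratins among the epithelial markers did not fall with it. KRT8 differed by 0.14 ± 0.05 (adjusted p = 0.036), and KRT18 and KRT19 by 0.67 ± 0.05 (adjusted p = 1.65e-08) and 0.87 ± 0.05 (adjusted p = 6.72e-10). KRT5 was at 0, KRT14 had 1 count, and ESRP1 and GRHL2 had at most 5 counts in any library. The summed counts of the 8 epithelial markers were from 23322 to 25247 in WT, and in Delta-TRRAP from 24296 to 27344. The part of these markers in the fall of CLDN7 was not tested.

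CLDN15, a claudin of the gut that forms cation pores (ENSG00000106404.13, chr7:101232092-101238820), had 344, 299 and 340 counts in WT and 556, 580 and 560 in Delta-TRRAP. The groups did not overlap. In normalized counts it went from 330 ± 36.0 to 563 ± 25.2 (SD, n = 3 each), a rise of 0.80 ± 0.08 (adjusted p = 4.94e-07) that stayed short of 2-fold under all 16 alternatives, at 0.71 to 0.93. Per length it moved from 2.93 to 5.00 RPKM. CLDN15 thus came close to CLDN12, the member with the highest level.

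CLDN12, whose sequence departs from most claudins and whose product lacks the usual tail motif for TJP1, was the best-read member. It had 1607, 1838 and 1623 counts in WT and 1363, 1545 and 1475 in Delta-TRRAP. The groups did not overlap, but the step was small: -0.20 ± 0.06 (adjusted p = 0.0114, 95% interval -0.33 to -0.06). It shrank to -0.06 with scaling to library size alone and grew to -0.37 once the median of its neighbourhood was subtracted. Per length it stood at 6.49 RPKM in WT and 5.58 in Delta-TRRAP, with 68.2% and 66.8% of tested genes below it. Same-strand exons of 4 other genes cover 3.0% to 7.92% each of the exon bases of CLDN12.

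CDH24, a type II cadherin, was the cadherin with the most reads and showed no change beyond the spread. It had 285, 275 and 270 counts in WT and 293, 238 and 273 in Delta-TRRAP, so the groups overlapped. Its log2 fold change of -0.03 ± 0.10 (adjusted p = 0.764) has a 95% interval from -0.24 to 0.17. CDH24 and CDH18 together held nearly all reads of the type II class, and the class summed to between 280 and 293 counts in WT libraries and between 347 and 404 in Delta-TRRAP libraries.

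**Figure D3:**
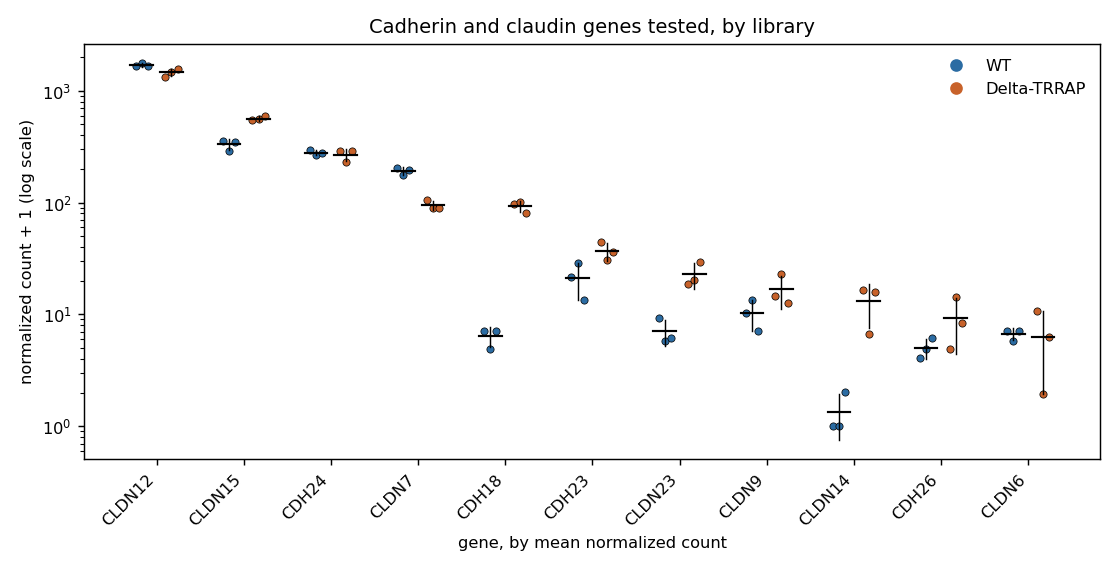
Normalized count + 1 on a log scale for the 11 tested members, with 1 point per library, the mean as a bar and ± SD as a line (n = 3 per group). The groups are apart for CLDN12, CLDN15, CLDN7, CDH18, CDH23, CLDN23 and CLDN14, and they overlap for CDH24, CLDN9, CDH26 and CLDN6.

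The remaining tested members were read at 1 to 44 counts per library. CDH23, a long cadherin of the tip links of hair cells, had 20, 29 and 12 counts in WT and 44, 31 and 33 in Delta-TRRAP (0.83 ± 0.27, adjusted p = 0.0139). The groups were apart by 2 counts at their nearest, and without WT replicate 2, its highest WT library, CDH23 was called higher (1.15 ± 0.30, adjusted p = 0.00441). CLDN9 had 9, 13 and 6 counts against 14, 23 and 11 (0.78 ± 0.37, adjusted p = 0.0745), and CLDN6, which lies 206 bases from it on the other strand, had 6, 5 and 6 against 10, 1 and 5 (-0.08 ± 0.57, adjusted p = 0.914, 95% interval -1.30 to 1.15). CDH26 had 3, 4 and 5 counts against 4, 14 and 7 (1.05 ± 0.52, adjusted p = 0.0904), in a stretch of chromosome 20 where 57 well-read genes had a median of -0.62. For CLDN9, CLDN6 and CDH26 the 95% interval held both 0 and a step as large as that of CLDN15, so neither could be told from the other at this depth.

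Type I classical cadherins, the class best known from adherens junctions, were all too low to test. CDH1 (E-cadherin) had 0, 2 and 1 counts in WT and 0, 1 and 2 in Delta-TRRAP, and CDH15 (M-cadherin of muscle) had 6, 7 and 1 against 4, 2 and 1. CDH3 (P-cadherin) had a single count, in a Delta-TRRAP library, and CDH2 (N-cadherin) and CDH4 (R-cadherin) were at 0. The 5 genes together reached at most 9 counts in a library.

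Among type II cadherins below the test, CDH8 had 0, 1 and 0 counts in WT and 4, 1 and 9 in Delta-TRRAP, and CDH7 had 0, 0 and 0 against 4, 1 and 3. CDH12 and CDH22 had 0 to 3 counts per library, CDH6 had 0 or 1, and CDH10 and CDH11 had 1 count each, both in Delta-TRRAP. CDH5, the cadherin of endothelium, had 1 count in all, in WT. Of the cadherins outside the classical types, CDH13, which is anchored by lipid and lacks a tail for catenins, had 1, 0 and 1 counts against 4, 5 and 2. CDH17, of intestine and liver, had 1, 1 and 3 against 3, 3 and 4, and CDH16, of kidney, had none in WT against 1, 2 and 1.

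Among the untested claudins, CLDN11, of myelin and testis, had 1, 2 and 1 counts in WT and 7, 7 and 6 in Delta-TRRAP. CLDN10 had 1, 0 and 0 against 3, 5 and 7, and CLDN18, of lung and stomach, had 1, 0 and 0 against 2, 8 and 2. For all 3 the lowest Delta-TRRAP library held more counts than the highest WT library. CLDN4 had 2, 7 and 2 against 5, 4 and 6, so its groups overlapped. CLDN16 had 0 to 2 counts per library, CLDN19 had 0 or 1, and CLDN5 (of endothelium) and CLDN20 had 1 count each, both in Delta-TRRAP. CLDN22 had 4 counts, all in Delta-TRRAP replicate 2, and its count is uncertain because 15.4% of its 50-base runs also occur in CLDN24.

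More members gave at least 1 read in the Delta-TRRAP libraries. The number detected was 19, 18 and 19 of 47 in WT and 27, 28 and 26 in Delta-TRRAP, although the Delta-TRRAP libraries were the shallower ones. The 36 members not tested summed to 17, 22 and 13 counts in WT and 44, 48 and 47 in Delta-TRRAP. Of the 34 members with any count, 10 (29.4%) had counts in Delta-TRRAP only, 25 counts in all and at most 4 per library, and 1 (CDH5) in WT only. Among all 34998 genes with a count, 4737 (13.5%) had counts in Delta-TRRAP only and 2448 in WT only, and each WT library detected between 25668 and 25998 genes, each Delta-TRRAP library between 27928 and 28033. When all genes with a count were tested with no filter, 6 members were called higher, against 10.8% of all genes so tested. The 3 added were CDH8 (adjusted p = 0.00515), CLDN10 (adjusted p = 0.00311) and CLDN11 (adjusted p = 0.00823).

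Some of the genes that mark the tissues in which such members are known also differed between the groups, and others did not. The summed counts of 8 fibroblast markers were 35, 42 and 56 in WT and 936, 998 and 860 in Delta-TRRAP, nearly all from COL1A2, while LUM and PDGFRA were at 0. COL1A1 was level, with 86 counts over the WT libraries and 89 over Delta-TRRAP (0.06 ± 0.29, adjusted p = 0.862). DCN had 35 and 26, COL3A1 2 and 28, and PDGFRB 5 and 28. The 6 neural markers summed to 20, 15 and 11 against 80, 71 and 49, through NCAM1 and L1CAM, with SOX10 and STMN2 at 0. TUBB3 did not pass the test (0.57 ± 0.40, adjusted p = 0.229). The 6 endothelial markers summed to 672, 724 and 671 against 470, 507 and 389, mostly PECAM1 (-0.75 ± 0.07). Other endothelial markers went the other way: TEK went from 7 counts over the WT libraries to 102 (3.80 ± 0.39, adjusted p = 3.93e-07), KDR had 0 and 17, and VWF had 1 and 10. TIE1 had 28 and 34 and showed no change beyond the spread (0.285 ± 0.366, adjusted p = 0.508). COL1A2, PDGFRB, NCAM1 and TEK passed the filter on low counts only through their Delta-TRRAP libraries, so among the tested genes they had to differ. The part of these markers in the low counts of members was not tested, and in bulk RNA fewer cells of a type and less RNA per cell cannot be told apart.

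Most intracellular partners of cadherins were well read in both groups, the exceptions being CTNNA3 and CTNND2, with at most 2 counts in all, and CTNNA2, with 27 counts in WT and 52 in Delta-TRRAP (0.95 ± 0.34, adjusted p = 0.0212). Of 12 such genes 10 were tested, none was called higher (16.5% of all tested genes) and VCL was called lower (6.08% of all). Of the 10, only CTNNA2 had a mean normalized count under 100, the class in which 30.8% of all tested genes were called higher. The 16.5% is thus not matched to the level of these genes. CTNNB1 (β-catenin, also a coactivator in Wnt signalling) had 13763, 13531 and 12991 counts in WT and 10024, 10066 and 9096 in Delta-TRRAP, a step of -0.46 ± 0.05 (adjusted p = 8.81e-07). CTNNA1 (α-catenin, which links β-catenin to actin) had 8985, 10212 and 9810 against 12800, 13673 and 10930, a step of 0.37 ± 0.06 (adjusted p = 4.86e-05) that shrank to 0.07 with its neighbourhood median subtracted. CTNND1 (p120-catenin, which keeps cadherins at the membrane) had 5666, 6402 and 6389 against 10296, 10863 and 8779, a step of 0.71 ± 0.06 (adjusted p = 6.99e-08). The groups did not overlap for any of these 3 genes, and β-catenin moved opposite to the other pair. VCL (vinculin, an actin linker at junctions and focal adhesions) went from 26423, 29093 and 29170 counts to 11080, 12038 and 8907 (-1.40 ± 0.07, adjusted p = 1.78e-10). Per length CTNNB1 stood at 29.5 RPKM in WT and 21.1 in Delta-TRRAP, above every cadherin and claudin, of which CLDN12 was the highest at 6.49 in WT.

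Of 22 further tight junction genes found in the tables, 17 were tested, 5 were called higher and 2 lower, beside 16.5% and 6.08% of all tested genes. Of the 5 called higher, 4 were among the 8 tested genes of the list with a mean normalized count under 100, the class in which 30.8% of all tested genes were called higher. TJP1 (ZO-1), the main scaffold for claudins, had 1978, 2149 and 2204 counts in WT and 2202, 2760 and 1422 in Delta-TRRAP. Its groups overlapped, and the Delta-TRRAP libraries were widely spread (0.01 ± 0.14, adjusted p = 0.941), and the sign of the step turned under 7 of 16 alternatives. OCLN (occludin) had 1 count in all 6 libraries. MAGI1, another scaffold, rose from 2747, 3090 and 3015 to 6601, 7428 and 5918 (1.18 ± 0.06, adjusted p = 2.23e-10).

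The steepest rises in this list were of genes with 0 to 4 counts per WT library. JAM2, an adhesion molecule of vascular junctions, had 1, 2 and 1 counts in WT and 51, 52 and 45 in Delta-TRRAP (5.09 ± 0.36, adjusted p = 6.26e-09). MARVELD3, a relative of occludin, had 0, 1 and 2 against 47, 23 and 28, a count ratio of 32.3 (95% interval 10.7 to 160), and CGN (cingulin) had 1, 0 and 4 against 12, 22 and 15 (3.21 ± 0.59, adjusted p = 1.87e-04). In each of these 3 genes all Delta-TRRAP libraries lay above all WT libraries, as for CDH18 and CLDN14, and all 3 passed the filter only through those libraries. JAM2 lies on chromosome 21, as CLDN14 does.

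JAM3, the partner of JAM2 in vascular adhesion, went the other way, from 84, 92 and 96 counts to 59, 32 and 34 (-1.11 ± 0.20, adjusted p = 1.25e-04). Without Delta-TRRAP replicate 2 its step was -0.93, and with scaling to library size -0.98, and it was then not called. PARD6A, a polarity protein, fell from 45, 45 and 47 counts to 11, 22 and 7 (-1.76 ± 0.28, adjusted p = 5.53e-05).

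Of 7 repressors known to act on cadherin or claudin genes, 4 were tested, 1 was called lower and none higher, while 3 passed the adjusted p. Over all tested genes 6.08% were called lower and 16.5% higher, and 58.3% passed the adjusted p. SNAI1 (Snail), which binds E-boxes such as those printed for CLDN7, had 273, 315 and 313 counts in WT and 151, 131 and 127 in Delta-TRRAP (-1.13 ± 0.10, adjusted p = 8.29e-08). It lies on chromosome 20, and with the median of its neighbourhood subtracted the step was -0.59, under which it was not called, nor was it with scaling to library size alone. TCF3 fell by 0.98 ± 0.05 on the log2 scale (adjusted p = 8.25e-11), just short of 2-fold, and ZEB1 by 0.41 ± 0.08 (adjusted p = 3.92e-04), while ZEB2 differed by -0.01 ± 0.07 (adjusted p = 0.865). SNAI1 and CLDN7 thus moved in the same direction, and no relation between them was tested.

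**Figure D4:**
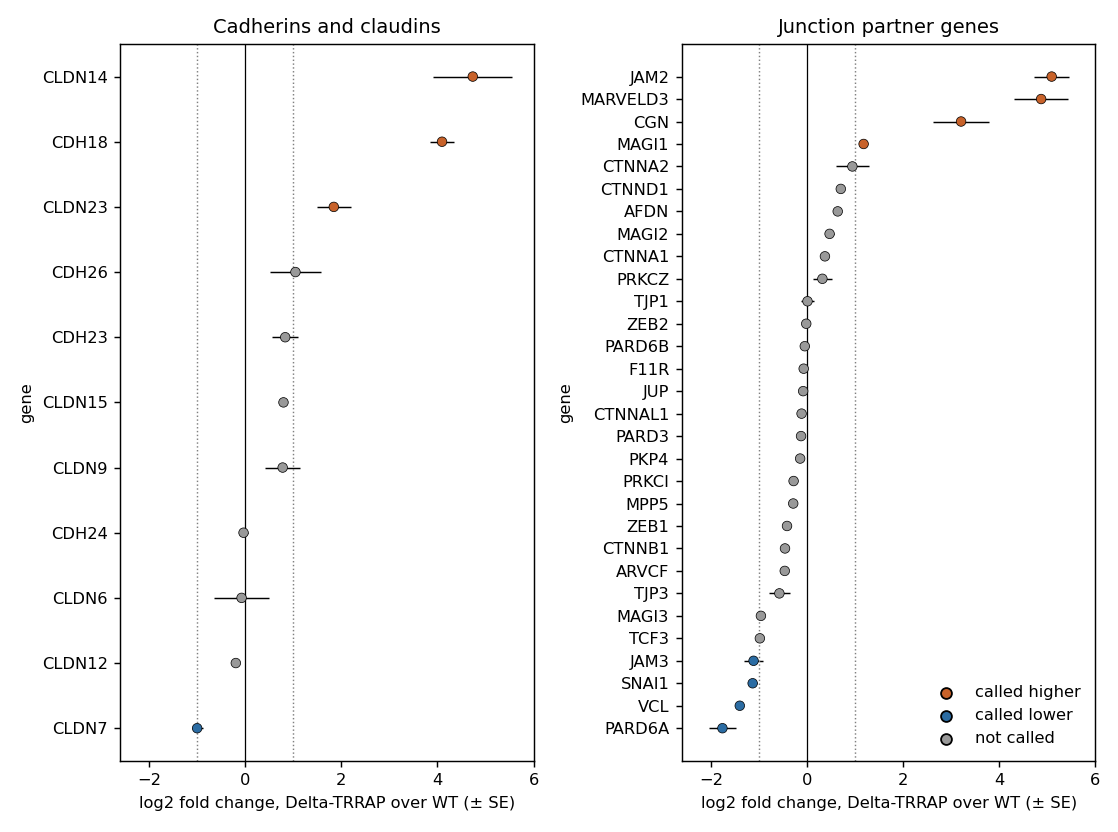
Log2 fold change (Delta-TRRAP over WT, bars ± SE) of the 11 tested cadherins and claudins (left) and of tested partner genes (right, 1 not shown), sorted by size, with dotted lines at 2-fold. CLDN14, CDH18 and CLDN23 lie above the upper line and CLDN7 on the lower one, and among partners JAM2, MARVELD3 and CGN lead and PARD6A is lowest.

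The 3 rises among the members kept their call under every alternative that tested them, and CLDN7 kept its own under 8 of 16. Under the filter at a mean normalized count of 50, CDH18 (mean 48.6), CLDN14 and CLDN23 were no longer tested, so the members called higher went from 3 to 0.

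**Figure D5:**
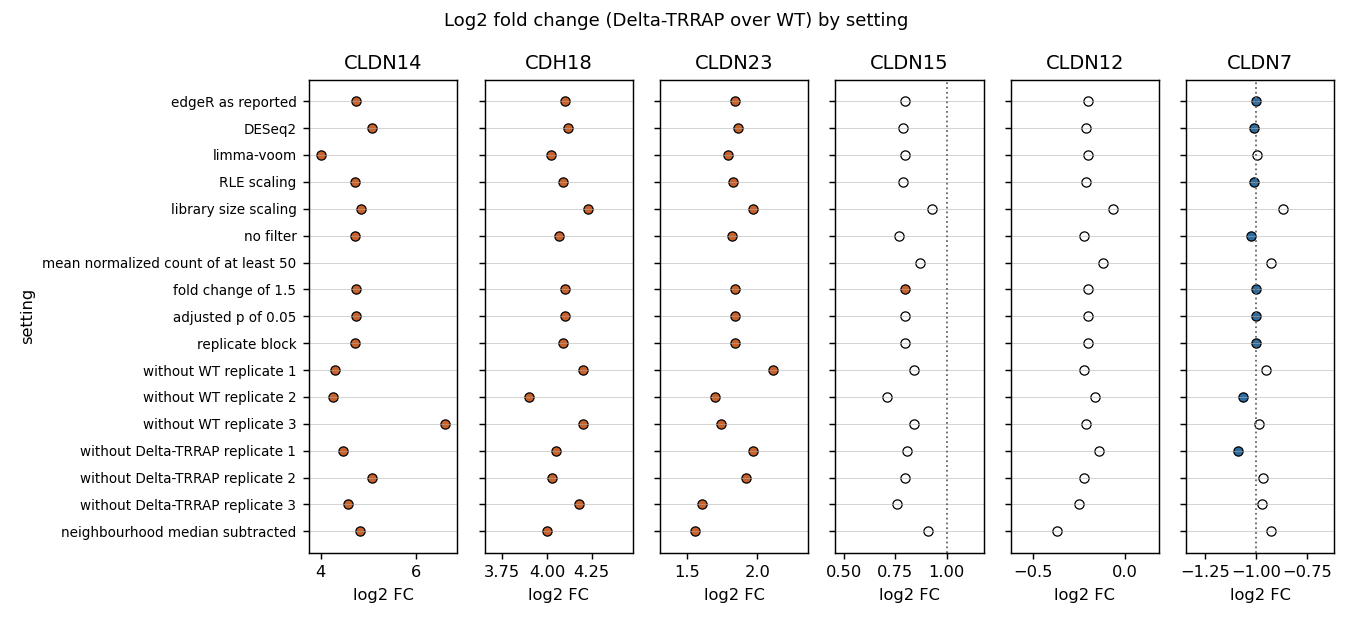
Log2 fold change of 6 members (panels, each with its own horizontal scale) under the reported setting and each alternative (rows), filled where the gene was called, open where it was not and absent where it was not tested, with dotted lines at 2-fold. CLDN7 lies between -1.09 and -0.87, on both sides of the line, and CDH18 stays between 3.90 and 4.23.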

How the data were processed

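Poly(A) RNA-seq counts of 3 WT and 3 Delta-TRRAP libraries were analysed, grouped by the labels. The counts were deposited by the authors as raw reads per gene, made with STAR on hg38 and HTSeq 2.0.2 in reverse-stranded union mode on uniquely aligned reads, so reads on same-strand overlaps or on near-identical copies are lost. The authors' table of fold changes and p-values and 3 further columns of per-sample normalized values in a series table were not used.

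Counts of all genes were fitted with edgeR 4.0.16 in R 4.3.3 (TMM, quasi-likelihood F test on the group term) for the 19114 genes whose normalized counts averaged 5 or more, and p-values were adjusted by Benjamini-Hochberg over all of them. A gene was called at an adjusted p of at most 0.01 and a fold change of at least 2. The SE is the absolute log2 fold change over the square root of F. The script was tested on simulated counts. DESeq2 1.42.0, limma 3.58.1 with voom, other scalings, filters and thresholds, the replicate block, a neighbourhood correction and leaving out each library were alternatives. Ratios of counts carry exact 95% intervals, and the limit for a count of 0 is 3 counts of the group's total.

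Positions and exon lengths came from GENCODE 44 on GRCh38 (all 47 members and 19041 tested genes matched by ID), and start windows from RefSeq (31 of 47 members, 8 of 11 tested). Named were every called member, members past the adjusted p alone, the 3 best-read tested members not called, untested members by their counts, every called partner gene but 1, which is not reported here, CTNNB1, CTNNA1, CTNND1, TJP1, OCLN and EP400. CDH23, CLDN9, CDH26, CLDN6, the other partner genes, markers and neighbouring genes were named after their values were seen. The members and lists were chosen with earlier results of these data known. Total counts per library were 35076835 to 42616061. Libraries of one group differed by more than counting noise (chi-square over its degrees of freedom 5.02 to 16.3), so each was taken as a separate library.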

Additional observations from a re-analysis of the deposited data

How the results depend on the processing

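The members called higher numbered 3 as reported, 6 with no filter and 0 with a filter at a mean of 50, where none of the 3 was tested. They numbered 4 at a fold change of 1.5, where CLDN15 was added, and 4 without WT replicate 2, where CDH23 was added, and 3 under every other alternative. The members called lower numbered 1 as reported and 0 under limma-voom (CLDN7 -0.998, just short of 2-fold), scaling to library size, the filter at a mean of 50 (-0.93) and subtraction of the neighbourhood median (-0.93), and ranged from 0 to 1 when each library was left out in turn. The adjusted p of CLDN7 was at most 3.42e-05 in all 16 alternatives. Partner genes called higher went from 5 to 2 with the filter at a mean of 50, and those called lower from 4 to 2 with scaling to library size. The sign turned for 3 genes that were never called. CDH24 gave 0.0988 with scaling to library size, 0.0383 with the filter at a mean of 50, and from -0.0955 to 0.0638 when each library was left out, positive without Delta-TRRAP replicate 2. TJP1 gave -0.025 under limma-voom, -0.014 with no filter, -0.0203 under the replicate block, and from -0.20 to 0.20 when each library was left out, with -0.0211 without WT replicate 1, -0.0021 without WT replicate 2, -0.0139 without Delta-TRRAP replicate 1 and -0.20 without Delta-TRRAP replicate 2. EP400 ranged from -0.031 (without Delta-TRRAP replicate 2) to 0.28 (without Delta-TRRAP replicate 3). The causes were not tested.

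Over all tested genes the median log2 step was 0.03 as reported and 0.16 with scaling to library size. Same-numbered libraries did not deviate together (correlations of deviations -0.01, -0.04 and -0.02), so no pairing by number showed in these values. The correlations cannot tell whether same-numbered cultures were handled together. With the replicate block 3 members were called higher and 1 lower, and 5 and 4 partner genes, the same counts as without it. With 3 libraries a group, and fewer than 30 reads per library for CLDN14 and CLDN23, the size of their steps is known only roughly.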
